A study of Mus musculus with 32 samples.

Results

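The 10 genes described here belong to the Notch pathway and were followed through single cells and small pools of the mouse subventricular zone. They were the receptors Notch1, Notch2, Notch3 and Notch4, the ligands Dll1, Dll4 and Jag1, and the target genes Hes1, Hes5 and Hey1. These 10 genes were chosen by name from the 38740 gene symbols of the expression table, and all 10 were in it. The samples were 4 pools of 10 cells each (P1 to P4) and 28 single cells (S1 to S28). Both came from the subventricular zone, a neurogenic zone of the forebrain, at postnatal day 21, and the labels gave one tissue and one age for all of them. No strain, genotype, sex, animal, sort or treatment was named. The 28 cells therefore stood as 1 sample of cells, cells are not replicates, and no p-value was made.

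Notch receptors are cell-surface proteins that are activated by ligands of the Delta and Jagged families, usually on a neighbouring cell. Binding leads to cleavage by an ADAM protease and then by gamma-secretase, and the released intracellular domain enters the nucleus, where it joins the DNA-binding protein RBPJ and a Mastermind coactivator to switch on target genes, among them repressors of the Hes and Hey families. In the subventricular zone the pathway is known for holding neural stem cells undifferentiated and quiescent, with Hes1 and Hes5 as its effectors, while in endothelial cells Dll4, Jag1, Notch1, Notch4 and Hey1 are known for sorting tip from stalk cells and for arterial identity.

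RBPJ binds DNA at target genes, and the promoter windows of the members were searched for its core letters TGGGAA and for the longer form GTGGGAA, each on both strands (the core lies within the longer form). The windows, from RefSeq on build GRCm38.p6, ran from 250 bases before to 50 bases after a start site. They covered 8 of the 10 members, with 9 windows in all, and held no entry for Hes1 or Hey1. The core letters were found in 25.6% of all 32851 windows of that table, GTGGGAA in 6.38%, and GTGGGAA on both strands of one window in 33 windows (0.10%). Of the members, 1 held either form: the Hes5 window held GTGGGAA on the gene's own strand 83 bases before the start and on the opposite strand 226 bases before it. The Hes5 window is printed to show this arrangement, with the matches in capitals. The windows of Dll4 and Notch4, a ligand and a receptor described below as higher in cells led by endothelial markers, are shown beside it as windows without a match. All 3 are on the plus strand and are written 5′ to 3′. A match is a run of letters and not a site shown to be bound, and the absence of one refers to these windows alone.
Hes5, chr4:154960673-154960972: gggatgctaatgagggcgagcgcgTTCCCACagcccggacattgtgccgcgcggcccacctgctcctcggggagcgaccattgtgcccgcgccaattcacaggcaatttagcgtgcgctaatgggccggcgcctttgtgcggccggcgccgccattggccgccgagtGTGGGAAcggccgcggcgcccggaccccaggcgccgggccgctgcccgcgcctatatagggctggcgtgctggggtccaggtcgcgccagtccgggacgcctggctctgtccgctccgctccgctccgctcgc
Dll4, chr2:119325534-119325833: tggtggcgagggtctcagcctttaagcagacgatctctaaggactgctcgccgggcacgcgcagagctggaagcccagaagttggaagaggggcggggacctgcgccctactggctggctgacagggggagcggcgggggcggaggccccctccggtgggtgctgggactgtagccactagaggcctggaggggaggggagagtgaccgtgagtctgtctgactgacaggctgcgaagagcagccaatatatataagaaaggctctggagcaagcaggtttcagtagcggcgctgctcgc
Notch4, chr17:34564045-34564344: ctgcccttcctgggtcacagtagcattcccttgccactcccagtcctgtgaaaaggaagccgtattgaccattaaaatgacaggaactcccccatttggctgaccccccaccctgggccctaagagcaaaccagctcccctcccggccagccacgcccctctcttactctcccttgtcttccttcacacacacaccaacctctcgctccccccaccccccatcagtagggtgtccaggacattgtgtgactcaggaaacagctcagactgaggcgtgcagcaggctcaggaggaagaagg

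Levels are in FPKM, fragments per kilobase of transcript and per 1000000 mapped fragments, which are per length and can be set side by side between genes. A gene was called found in a library at an FPKM of at least 1. An exact 0 in such a table can be a failed estimate (the mitochondrial gene mt-Co1 stood at 0 in all 32 libraries and Hprt in 8), so these values are given as listed at 0. Depth could be read only roughly, from the step of 1 fragment: it was clear in 19 libraries (S1 to S17, P1 and P2) and placed them at about 6.20 to 20.9 times 1000000 fragments, and it was not clear in the other 13. In S1 to S17 the 46 member values at or above 1 FPKM corresponded to about 91.2 to 9662 fragments, and 16 of the 18 values between 0 and 1 to fewer than 20. Values in S18 to S22, and in S23 to S28, were linked: where 1 cell of such a set was high in a gene, the others often held a small share of its value.

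Each library was read against 11 marker lists, none of which held a member, and was assigned to the list with the highest mean log2(FPKM + 1). Endothelial markers led 8 cells (S1, S2, S3, S6, S7, S8, S16 and S17), with 9 to 12 of 12 markers found in each. S3 also held 9 of 12 microglial markers, at a mean log2 level of 5.92 beside 8.48 for endothelial ones. Astrocyte markers led S11 and S14, markers of motile cilia, as on ependymal cells, led S9, S10 and S15, choroid plexus markers led S5, and oligodendrocyte markers led S4, S12 and S13. Microglial markers led S18 to S21 and neuroblast markers S22 to S28. Other cells of mixed markers included S15, with 9 of 14 astrocyte markers at 3.84 beside 4.4 for motile cilia, S21, with 8 of 13 neuroblast markers at 3.65 beside 4.81 for microglia, and S22, with 11 of 12 microglial markers at 3.08 beside 5.20 for neuroblasts. No member was found in these 3 cells. S10 had a weak lead, with 9 of 15 markers of motile cilia at 2.99 beside 6 of 14 astrocyte markers at 2.15, and held Notch2 and Hes1. S27 had neuroblast markers at 3.85 beside 2.91 for microglia, and no member was found in it. All cells of the linked sets were thus led by microglial or neuroblast markers, and no other cell was. Of the pools, P2 and P3 were led by endothelial markers (mean log2 level 7.73 and 8.31, with 12 of 12 found in each), P4 by oligodendrocyte markers (8.91) and P1 by choroid plexus markers (8.43), closely followed by oligodendrocyte markers (8.38). P2 also held microglial markers at 6.81, and P4 choroid plexus markers at 7.10 and all 14 astrocyte markers at 6.86. A pool is a small bulk sample, in which fewer cells of a type and less RNA per cell cannot be told apart.

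Most pairs of a member and a cell were not found. Of the 280 pairs, 50 were found, 35 lay between 0 and 1 FPKM, and 195 were listed at 0. The cells led by endothelial markers held 28 of their 80 pairs (35%), and the other cells 22 of 200 (11%). Among the other cells, the 11 cells of the linked sets held 4 of 110 pairs, and the 9 cells of S1 to S17 held 18 of 90 (20%). In each cell led by endothelial markers 2 to 5 members were found (median 3.5), against 0 to 4 in the other cells (median 0.5). The median number of all genes found was 5396 and 4833 in these groups of cells, 6962 in the 9 other cells of S1 to S17, and 3466 in the linked sets. The part of breadth and library set in the difference was not tested.

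**Figure D1:**
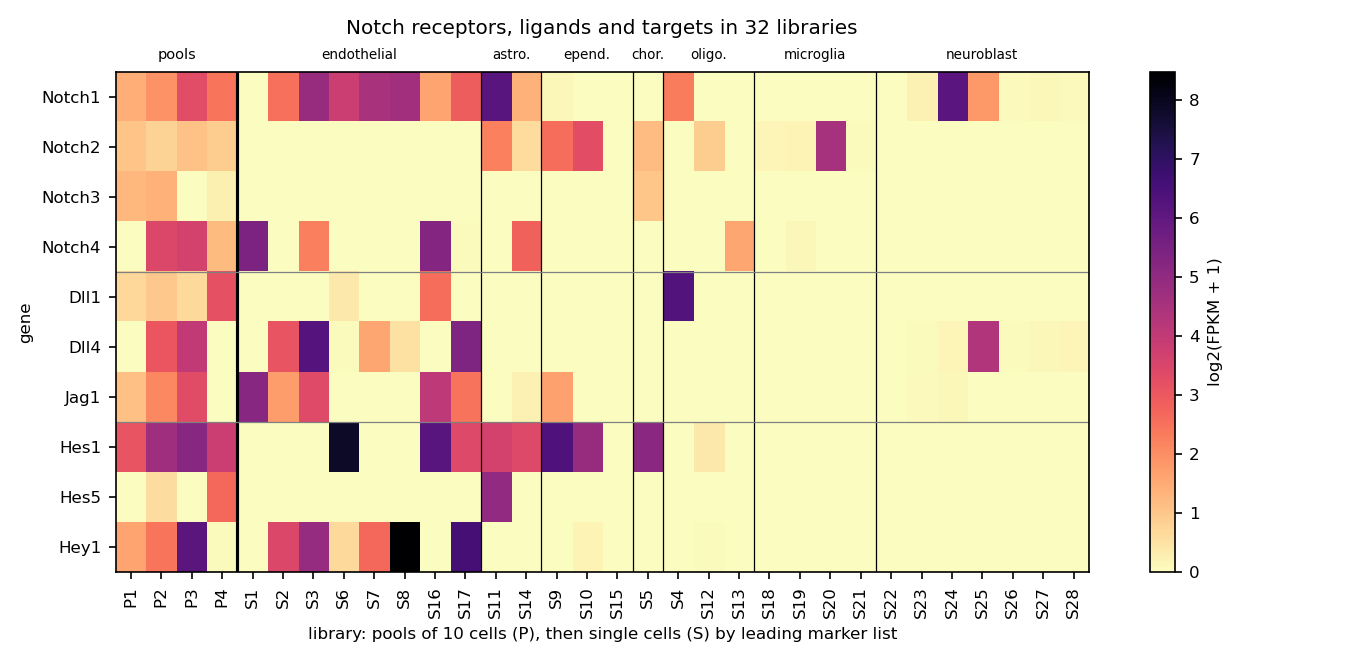
Levels of the 10 members, as log2(FPKM + 1), in the 4 pools (left of the thick line) and the 28 single cells, ordered by leading marker list and divided by thin lines; grey lines divide receptors, ligands and targets. The Hey1 row is filled in 5 of the 8 cells led by endothelial markers and blank or nearly so in the other cells, Notch2 is filled in other cells alone, and Hes5 is filled in S11 and P4 and faint in P2.

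A receptor was found in 18 of 28 cells (64.3%, exact Clopper-Pearson 95% interval 44.1 to 81.4), a target gene in 12 (42.9%, 24.5 to 62.8) and a ligand in 9 (32.1%, 15.9 to 52.4). These intervals cover counting error only. Each of the 12 cells with a target and each of the 9 cells with a ligand also had a receptor. In S1 to S17, however, a receptor was found in every cell but S12 and S15. All cells with a target were of S1 to S17, as were all cells with a ligand but S25. The part of library set in this overlap was not tested. A receptor without any of the 3 targets was found in 6 cells, of which 1 was led by endothelial markers. A receptor, a ligand and a target were found together in 6 cells, 5 of them led by endothelial markers (S2, S3, S7, S16 and S17), and the remaining one was S9. In 10 cells no member was found, and none of those cells was led by endothelial markers. Only S12 and S15 among them were of S1 to S17, and the rest were of the linked sets.

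**Figure D2:**
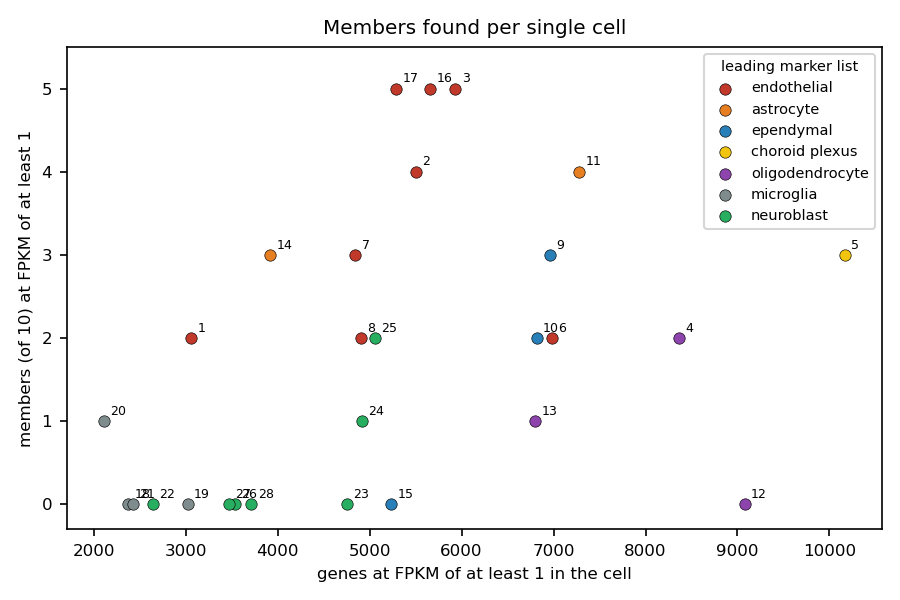
Number of the 10 members found at an FPKM of at least 1 in each single cell (vertical axis) against the number of all genes found in that cell (horizontal axis); points are numbered by cell and coloured by leading marker list. The 8 cells led by endothelial markers hold 2 to 5 members, while S12 holds none with 9079 genes found.

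Among the receptors, Notch1 was the most widely found. Notch1 (chr2:26457903-26516663, minus strand), a receptor used by neural stem cells and endothelial cells alike, was found in 12 cells (42.9%). In cells led by endothelial markers its lowest, median and highest levels were 0, 9.70 and 28.1 FPKM, against 0, 0.0390 and 70.8 FPKM in the other cells. It was found in 7 of these 8 cells and in 5 of the other 20, so the groups overlapped. The highest values were outside the endothelial group: 70.8 FPKM in S11, led by astrocyte markers, and 69.2 FPKM in S24, led by neuroblast markers. In the linked set of S24, S25 stood at 2.49 FPKM, 3.60% of S24's value, and the other 4 cells at 0.0551 to 0.162 FPKM. The pools held 1.72, 2.85, 8.75 and 4.43 FPKM (P1 to P4). All 4 pools were thus above 1 FPKM, and P3, led by endothelial markers, was the highest. At the Notch1 locus the opposite-strand gene Gm13568 stood at 36.1 FPKM in S24, and 0610009E02Rik, also on that strand, at 58.3 FPKM in S9, 82.5 in S10 and 13.4 in P3. The strand setting of the counting is not given in the sources used here, and reads of overlapping genes cannot be told apart.

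Notch2 (chr3:98013527-98150361, plus strand), a receptor known in glia and stem cells as well as in vessel walls, was found in 5 cells, none led by endothelial markers. The levels were 1.24 FPKM in S5, 4.96 in S9, 8.64 in S10, 3.68 in S11 and 22.7 in S20. These cells were led by choroid plexus (S5), ciliated (S9 and S10), astrocyte (S11) and microglial (S20) markers. In cells led by endothelial markers the lowest and the median were 0 and the highest was 0.00462 FPKM, against 0, 0.0188 and 22.7 FPKM in the other cells. In the linked set of S20 the other 4 cells lay at 0.0139 to 0.138 FPKM, up to 0.609% of its value. The pools were close to one another, with 1.08, 0.717, 1.10 and 0.840 FPKM in P1 to P4. Of the 1263 genes found in exactly 5 cells, 31.9% were, like Notch2, found in no cell led by endothelial markers, so this pattern was common among genes found as rarely.

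Notch1 and Notch2 were found together in 1 cell, S11. Across the 28 cells their Spearman correlation was -0.34. This is a description over cells that differ in type, depth and library set.

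Notch3 (chr17:32120820-32166852, minus strand), the receptor of pericytes and vascular smooth muscle, was at the limit of being found in 1 cell, with 1.0 FPKM in S5. The only other cell above 0 was S6, with 0.0204 FPKM, the worth of about 1 fragment. The pools held 1.44, 1.61, 0 and 0.195 FPKM in P1 to P4, so that P1 and P2 were each above every single cell. Pericyte and smooth muscle markers led no library. Their mean log2 level was at most 1.12 in any single cell, and in P1 to P4 it was 3.43, 2.86, 0.328 and 1.74, with 7, 8, 2 and 4 of 10 markers found. The pools with Notch3 above 1 FPKM were thus those highest in these markers, whose part in its values was not tested.

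Notch4 (chr17:34564268-34588503, plus strand), a receptor known chiefly from endothelium, was found in 5 cells. Its levels were 41.5 FPKM in S1, 3.80 in S3 and 37.4 in S16, all led by endothelial markers, and 5.91 FPKM in S14 and 2.0 in S13, led by astrocyte and oligodendrocyte markers. The lowest, median and highest levels were 0, 0.0178 and 41.5 FPKM in cells led by endothelial markers and 0, 0 and 5.91 FPKM in the other cells, so the groups overlapped. In the pools Notch4 stood at 0, 9.90, 11.5 and 1.32 FPKM in P1 to P4. P2 and P3 were the high ones.

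A total of 5 cells held more than 1 receptor, and none held more than 2. Notch1 and Notch4 shared S3, S14 and S16, Notch1 and Notch2 shared S11, and Notch2 and Notch3 shared S5.

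Of the ligands, Dll4 and Jag1 were found mainly in cells led by endothelial markers, and Dll1 in 2 cells of different classes. Dll4 (chr2:119325784-119335962, plus strand), the ligand of tip cells and arteries, was found in S2 at 7.47 FPKM, S3 at 74.9, S7 at 1.98, S17 at 40.9 and S25 at 19.1. The first 4 of these cells were led by endothelial markers and S25 by neuroblast markers. The lowest, median and highest levels were 0, 1.21 and 74.9 FPKM in cells led by endothelial markers, against 0, 0 and 19.1 FPKM in the other cells. Apart from S25, the highest of the other cells was 0.116 FPKM, and this and the other values above 0 were in the linked set of S25, at 0.151% to 0.604% of its value. The pools held 0, 7.38, 15.1 and 0 FPKM in P1 to P4, above 0 in the pools led by endothelial markers alone.

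Dll4 shares its locus with Gm14207 on the opposite strand. Gm14207 stood at 292 FPKM in S3, 62.0 in S25 and 38.2 in P3, but at 0 in S17, S2, S7 and P2. The high Dll4 values of S3, S25 and P3 therefore carry that uncertainty, and those of S17 and P2 were reached with Gm14207 listed at 0.

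Jag1 (chr2:137081456-137116644, minus strand), a ligand of arterial endothelium and of glia, was found in 6 cells, 5 of them led by endothelial markers. The levels were 35.4 FPKM in S1, 2.35 in S2, 9.33 in S3, 16.1 in S16 and 4.54 in S17, and outside that group 2.17 FPKM in S9, led by ciliated-cell markers. The lowest, median and highest levels were 0, 3.44 and 35.4 FPKM in cells led by endothelial markers and 0, 0 and 2.17 FPKM in the other cells, so the groups overlapped. In the pools Jag1 stood at 1.14, 3.29, 8.98 and 0.0210 FPKM in P1 to P4. No gene overlaps Jag1 in the annotation.

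Dll1 (chr17:15367354-15376872, minus strand), a ligand known on differentiating neural progenitors, was found in 2 cells. One was S4, led by oligodendrocyte markers, with 77.2 FPKM, and the other S16, led by endothelial markers, with 4.90 FPKM. S6 held 0.293 FPKM, and the remaining 25 cells were listed at 0, among them all 7 cells led by neuroblast markers, which were all of the linked sets. The pools held 0.601, 0.983, 0.573 and 8.12 FPKM in P1 to P4, so that P4, led by oligodendrocyte markers, stood apart.

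Among the target genes, Hey1 was found in cells led by endothelial markers alone. Hey1 (chr3:8663359-8667256, minus strand), a transcriptional repressor and Notch target of arterial endothelium, stood at 10.1 FPKM in S2, 28.8 in S3, 5.38 in S7, 357 in S8 and 95 in S17. The lowest, median and highest levels were 0, 7.73 and 357 FPKM in cells led by endothelial markers, against 0, 0 and 0.133 FPKM in the other cells. The groups still overlapped at 0, in S1 and S16, and S6 held 0.561 FPKM. S8 alone carried 71.8% of the sum over cells. Being found in 0 of the other 20 cells allows a share of up to 15%, counting error alone considered. Of the 1263 genes found in exactly 5 cells, 1.9% were found, like Hey1, in 5 cells led by endothelial markers. The pools held 2.03, 4.46, 67.5 and 0.0315 FPKM in P1 to P4, with P3 far above the others.

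Hes1 (chr16:30064384-30067796, plus strand), a repressor that keeps progenitors undifferentiated and a target in many cell types, was found in 8 cells of 4 classes. The levels were 226 FPKM in S6, 72.0 in S16 and 9.47 in S17, led by endothelial markers, 82.1 in S9 and 27.8 in S10, led by ciliated-cell markers, 34.0 in S5, led by choroid plexus markers, and 11.4 in S11 and 9.47 in S14, led by astrocyte markers. Both cells led by astrocyte markers thus held it, and none of the cells led by oligodendrocyte, microglial or neuroblast markers did. The cells led by microglial or neuroblast markers were those of the linked sets, so class and library set cannot be told apart there. The lowest, median and highest levels were 0, 0 and 226 FPKM in cells led by endothelial markers, against 0, 0 and 82.1 FPKM in the other cells, so the groups overlapped over most of their range. All 4 pools held Hes1, at 7.63, 24.7, 35.5 and 13.1 FPKM in P1 to P4.

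Hes5 (chr4:154960923-154962371, plus strand), the Hes gene most tied to neural stem cells and astrocyte lineage cells, was found in 1 cell, S11, with 31.0 FPKM, and was listed at 0 in the other 27. S11 is led by astrocyte markers, with 14 of 14 found, and Hes5 at 0 in all 8 cells led by endothelial markers allows a share of up to 37.5%. S11 was also the cell with the highest Notch1 value and the only cell with both Notch1 and Notch2. In the pools Hes5 stood at 0, 0.504, 0 and 5.35 FPKM in P1 to P4. P4, the highest, held all 14 astrocyte markers. The opposite-strand gene Gm20421 at the Hes5 locus held 0.375 FPKM in S11 and 0.304 FPKM in P4. The promoter of Hes5 is the one printed above with a match on each strand.

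The cells of a receptor and of a target or ligand coincided for some members. All 5 cells with Hey1 had Notch1, as did all 5 cells with Dll4, against 2.14% of the 1263 genes found in exactly 5 cells. Notch1, however, was found in 7 of the 8 cells led by endothelial markers, and of the 24 genes found in exactly 5 cells, all of this group, 54.2% had Notch1 in each. The Notch1 value of S25, 1 of the 5 cells with Dll4, was the low one in a linked set given above, and it was no longer found under a 5% limit, which puts lower shares of the set's top value at 0. Dll4 and Hey1 shared S2, S3, S7 and S17. Of the 5 cells with Notch2, 4 had Hes1 (S5, S9, S10 and S11) and S20 of the linked sets did not. Of the 403 genes found in exactly 5 cells and in none led by endothelial markers, 5.71% had Hes1 in at least 4 of them. Hes1, however, was listed at 0 in all 11 cells of the linked sets and was found in 5 of the 9 other cells of S1 to S17. Genes found largely in linked cells could thus not count toward that share, and the part of library set in the coincidence was not tested. Hes1 and Hey1 were found together in 1 cell, S17. Notch4 and Jag1 were found together in S1, S3 and S16. In S1 these were the only members found, and S1 had no target.

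**Figure D3:**
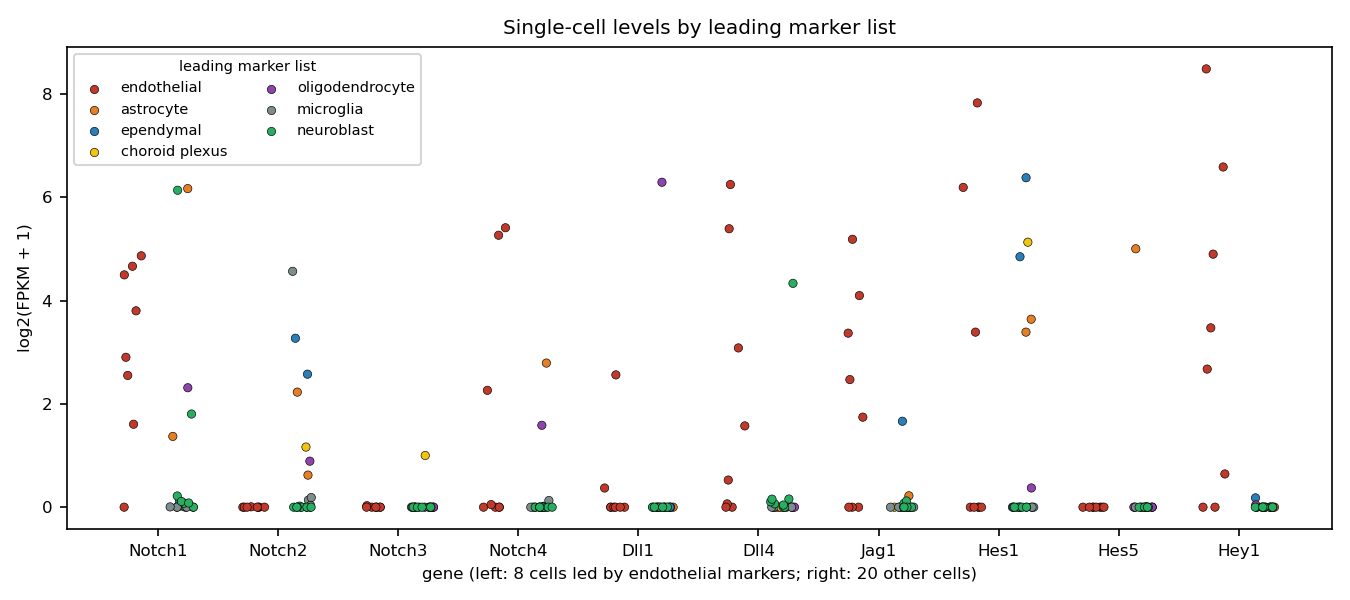
Levels of each member, as log2(FPKM + 1), in single cells, with the 8 cells led by endothelial markers at the left of each gene and the 20 other cells at its right; each point is 1 cell, coloured by leading marker list. Hey1, Dll4, Jag1 and Notch4 reach higher on the left, Notch2 is above 1 FPKM on the right alone, and the highest Notch1 and Dll1 values are on the right.

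The members were next set against all genes in the same contrast. With the log2 ratio of mean FPKM + 1 in cells led by endothelial markers over that in the other cells, 5 of the 10 members were at least 2-fold higher (50%), against 21.5% of the 18856 genes found in a cell. They were Hey1 at 5.97, Dll4 at 3.08, Jag1 at 3.07, Notch4 at 3.02 and Hes1 at 2.09. At least 2-fold lower were 3 members (30%), against 35.3% of genes: Notch2 at -1.65, Dll1 at -1.56 and Hes5. For Hes5, listed at 0 in all cells led by endothelial markers, no fold is given, and its place in the count rests on the 1 added to each mean. Notch1 stood at 0.68 and Notch3 at -0.07. The median over the members was 1.39, and over all genes it was -0.30. With the linked sets left out, so that S1 to S17 alone were compared, 5 members were again higher and 3 lower, beside 20.9% and 36.8% of genes.

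Single cells decided several of these ratios. Without S8 the ratio of Hey1 was 4.38, without S3 that of Dll4 was 2.06 and without S25 it was 4.03, without S1 that of Jag1 was 2.32 and that of Notch4 was 2.30, and without S16 the Notch4 ratio was 2.41. Without S6 the Hes1 ratio was 0.45, below the 2-fold mark, and without S9 it was 2.88. Without S4 the Dll1 ratio was 0.72, the opposite direction, and without S11 Hes5 was at 0 in every cell. The Notch1 ratio was 1.4 without S11 and 1.39 without S24, both past the mark, while with libraries rescaled to 1 upper quartile it was -0.37, on the other side of 0. With a mean of log values Notch1 was at 2.19, past the mark, and Hes1 at 0.99, short of it, so that 5 members were higher but not the same 5. The Notch2 ratio was -1.04 without S20. The Dll1 ratio was -2.22 without S16. Leaving out S3, the cell that also held microglial markers, kept all 10 ratios on their side of the mark.

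In the pools the members held 25 of 40 pairs, beside 60.4% of pairs over all genes found in a library. Over the mean of the cells, none of the 10 members was at least 2-fold higher with all 4 pools on that side, against 1.57% of the 19783 genes found in a library, and none was lower by that rule, against 12.5% of genes. The median log2 ratio of the members was 0.16 (SD over the 4 pools' medians 0.729), beside 0.064 for all genes. Notch1 had the lowest ratio, -0.86 (SD over pools 0.785), and Notch3 the highest, 0.80 (SD 0.706). For 7 members the SD over pools was larger than the size of the ratio: Hey1 (0.06, SD 2.57), Dll4 (0.10, SD 2.08), Notch4 (0.66, SD 1.77), Jag1 (0.31, SD 1.40), Hes5 (0.23, SD 1.27), Dll1 (-0.14, SD 1.22) and Hes1 (0.25, SD 0.921). P3 and P4 decided some of these values: without P3 the ratio was -2.56 for Hey1 and -1.31 for Notch1, both lower by the rule, and 1.01 for Notch3, higher by it, and without P4 it was -1.20 for Dll1.

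The order of the pools followed their leading markers for some members. For each of Notch4, Dll4, Jag1, Hes1 and Hey1, the 5 members higher in cells led by endothelial markers, both P2 and P3 were above both P1 and P4. Of all genes found in a library 16.2% had P2 and P3 above the other pools, and of the 4050 genes at least 2-fold higher in cells led by endothelial markers 37.5% did. The mean log2 level of the endothelial markers was 7.73 and 8.31 in P2 and P3, and 1.19 and 1.36 in P1 and P4. Their part in the member values was not tested. Dll1 and Hes5, by contrast, were highest in P4.

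**Figure D4:**
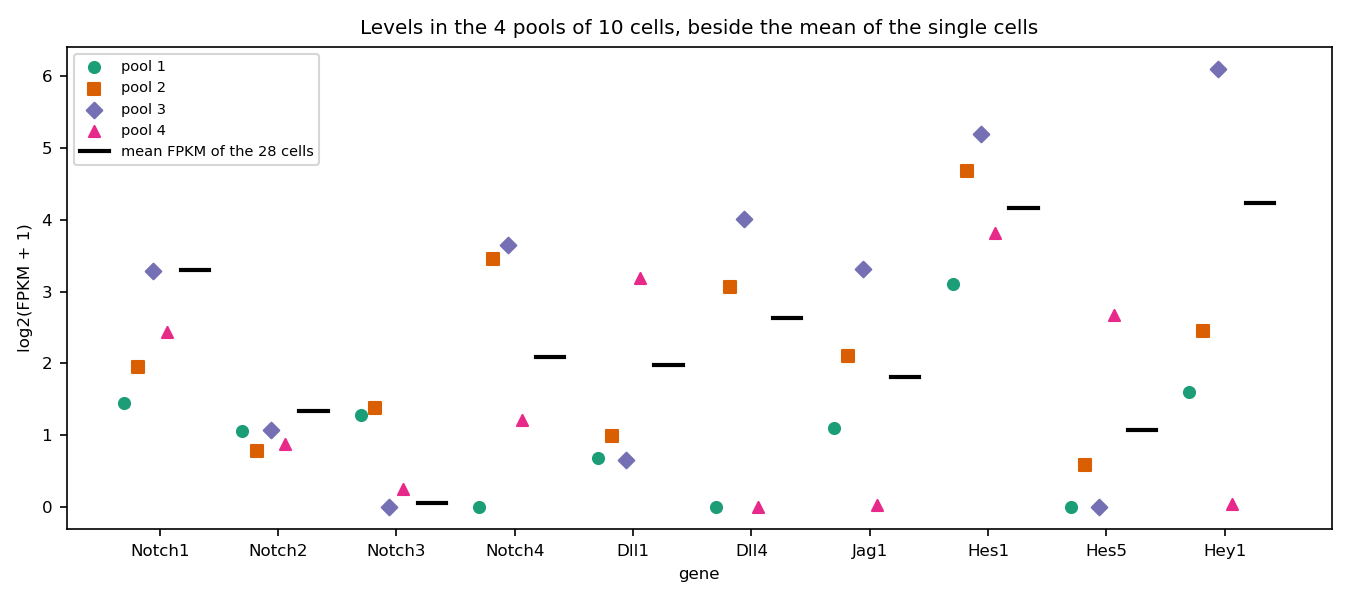
Levels of the 10 members, as log2(FPKM + 1), in each of the 4 pools (symbols), with a bar at log2(mean FPKM + 1) of the 28 single cells at the right of each gene. Pools 2 and 3 are the highest for Notch4, Dll4, Jag1, Hes1 and Hey1, pool 4 is the highest for Dll1 and Hes5, and for no gene is the mean of the pools 2-fold from the bar with all 4 on one side.

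The wider pathway was read from 8 role lists with 49 genes besides the members, of which 44 were found in a cell. In cells led by endothelial markers 10 of the 49 were at least 2-fold higher (20.4%) and 18 lower (36.7%), close to the 21.5% and 35.3% of all genes. Jag2, the other Jagged ligand, was also found mainly in cells led by endothelial markers, with 52.1 FPKM in S2, 6.82 in S3, 17.7 in S7 and 18.5 in S8, all led by endothelial markers, and 21.7 FPKM in S15. Dll3, a Delta ligand that is not known to activate receptors, was found in no library. The ratio of Jag2 was 2.64. It shared S2, S3 and S7 with Dll4 and S2 and S3 with Jag1, and was listed at 0 in S1 and S16, the highest cells of Jag1.

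Of the non-canonical ligands, the neuronal surface proteins Cntn1 and Dner were the highest. Cntn1 was lower in cells led by endothelial markers, at a ratio of -3.52, and reached 127 FPKM in S9. Dner was listed at 0 in all 8 cells led by endothelial markers and reached 158 FPKM in S14. Of the other genes on the target list, Hes6, an inhibitor of Hes1 known to promote neuronal differentiation, was found in 13 cells, or 8 with values under 2% of the highest in a linked set put at 0. It stood at 662 FPKM in S22, 268 in S11 and 267 in S25. A place on that list does not make its level a measure of Notch activity. Hey2, a relative of Hey1, had 166 FPKM in S14 and 24.2 FPKM in S3, the 1 cell led by endothelial markers in which it was found. Nrarp, a target that limits Notch signalling and is named here after its values were seen, was found like Hes5 in S11 alone, at 54.4 FPKM, and was highest among the pools in P4 at 10.8 FPKM. Unlike Hes5, at 0 in P1 and 0.504 FPKM in P2, Nrarp was also found there, at 4.32 and 3.18 FPKM. The share of all genes with such a pattern was not counted.

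Of the enzymes and cofactors, Psenen and Aph1c, gamma-secretase subunits, had their highest values in linked cells, 1624 FPKM in S23 and 1763 FPKM in S19. Aph1c was found in 13 cells, none led by endothelial markers, or in 9 with that 2% limit. Its ratio was -6.60, but -3.91 without S19, which held 86.0% of its sum, and -4.82 within S1 to S17. Linked cells also held the highest values of Dtx3 and Dtx2, of the Deltex family of ubiquitin ligases, with 2316 FPKM in S28 and 702 FPKM in S18, and of Mfng, a glycosyltransferase of receptors, with 1114 FPKM in S25. These values were 83.9%, 83.5% and 82.9% of the sums over cells of Dtx3, Dtx2 and Mfng. Genes were named here for a high mean over cells, so the naming rule itself favours genes with such a peak. Poglut1, an O-glucosyltransferase of receptors, peaked outside the linked sets at 113 FPKM in S10, and the coactivator Maml2 at 179 FPKM in S7. Dlk1, Mfap5, Hes2 and Neurl1b joined Dll3 as genes below 1 FPKM in all 32 libraries.

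**Figure D5:**
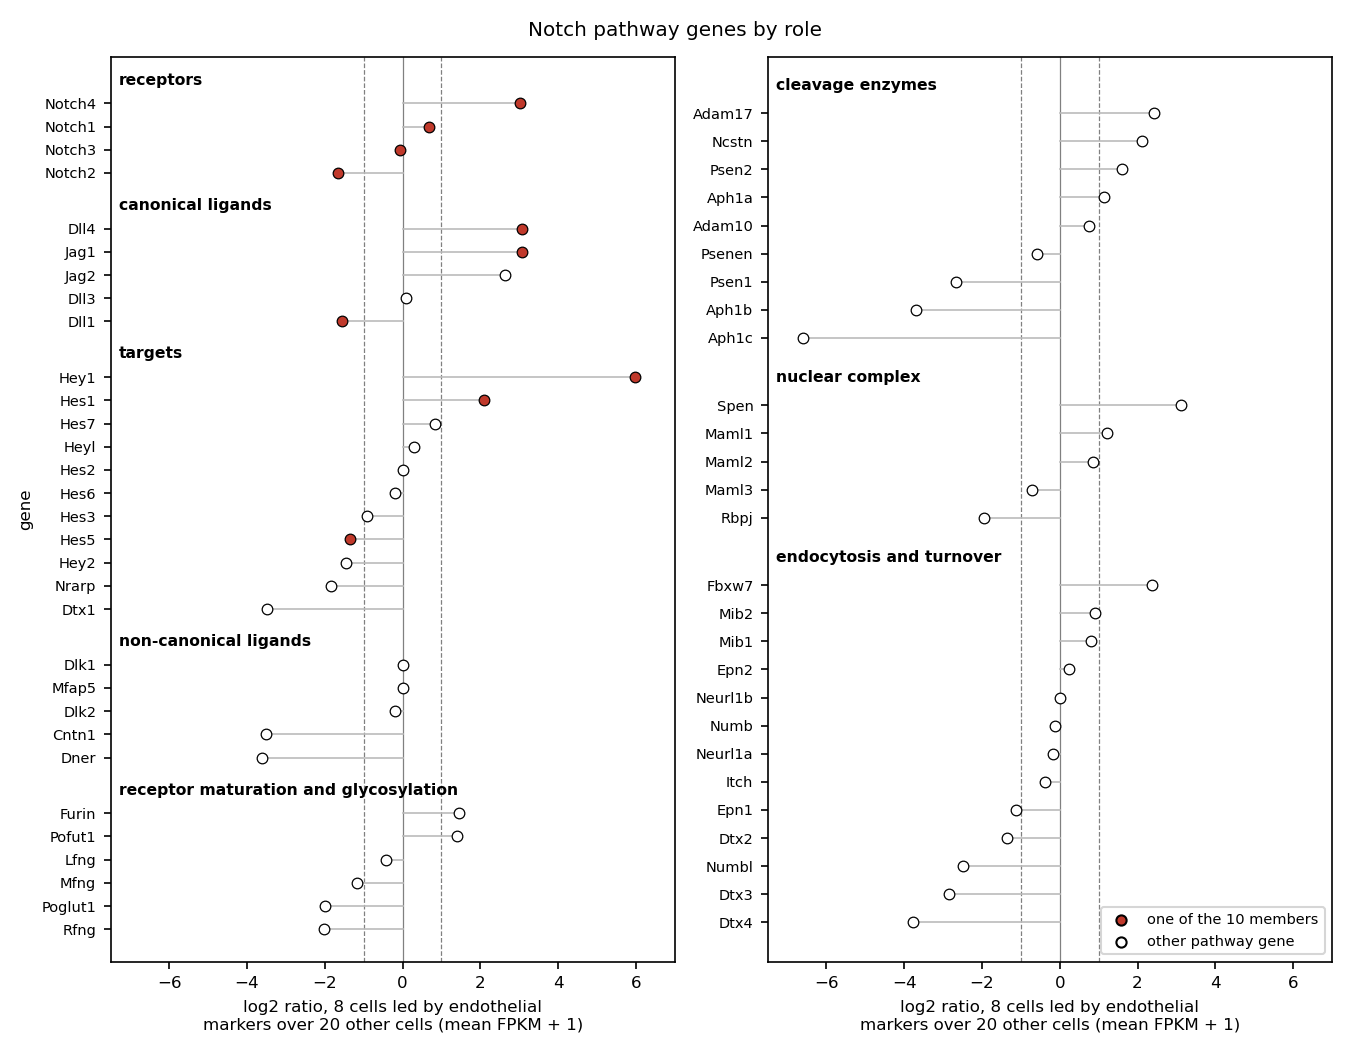
Log2 ratio of mean FPKM + 1 in the 8 cells led by endothelial markers over the 20 other cells, for pathway genes by role; filled points are the 10 members, open points the other genes, and dashed lines mark 2-fold. Hey1 at 5.97 lies farthest to the right, and Aph1c at -6.60 farthest to the left. The points of genes listed at 0 in all 8 cells, such as Hes5 and Dner, depend on the 1 added to each mean.

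In the pools, 1 of the 49 genes was at least 2-fold higher than in the cells (Cntn1, 1.12) and 7 were lower (14.3%, against 12.5% of all genes): Mfng, Aph1a, Aph1c, Numbl, Dtx2, Dtx3 and Dtx4. Of these, all but Aph1a had 78.8% (Dtx4) to 95.5% (Numbl) of their single-cell sum in 1 cell of the linked sets.

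The genes whose levels over the 28 cells were most like those of a member, by Spearman correlation among 10712 genes found in 5 or more cells, are named next, and none of them was on the role lists. For Dll4 they were Gm23646 (0.773), Impdh1 (0.770) and the endothelial adhesion gene Pecam1 (0.767). Pecam1 is on the endothelial marker list and was found in 17 cells, 7 of them led by endothelial markers. For Hey1 the nearest genes were Gm15658 (0.866), Gm11951 (0.849) and Bend5 (0.834), and for Notch1 Gm12492 (0.790), Efr3b (0.771) and Arl2bp (0.766). Notch2 was nearest to Alkbh6 (0.909), Slc30a6 (0.880) and Gm17080 (0.853), and Hes1 to Limd1 (0.876), Gm10254 (0.876) and Wfdc2 (0.848). Notch4 had lower values, with Nans (0.699), Ppib (0.573) and Snx22 (0.572). Jag1 was nearest to Gm8805 (0.767), Gm15198 (0.758) and Rpl41 (0.743), found in 23, 26 and 28 cells. Apart from Notch1, listed at 0 in 7 cells, these members were listed at 0 in 16 to 20 of 28 cells. The correlations thus rest largely on a member's few cells above 0 and its ties at 0, and the cells share library set and depth.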

How the data were processed

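RNA of 4 pools of 10 cells and 28 single cells was sequenced from libraries made by single-cell methods, per the labels' protocols. TopHat 1.41, Cufflinks 2.02 and build mm9 are named in the submitters' processing notes. The authors deposited 1 table of FPKM per gene. Its loci match GRCm38: 96.0% of 39011 lines carry a GENCODE M21 gene ID, and 99.7% of these lie over that gene in GRCm38, the build used for all coordinates. The sources used here do not give the read layout, the strand setting or the annotation release.

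Lines sharing a symbol were added up (each member had 1 line), giving 38740 symbols, and 27 symbols that had become dates were restored. With Python 3.11.15, numpy 2.4.6, pandas 2.3.3 and scipy 1.17.1, the ratios were log2 of (mean FPKM + 1) over (mean FPKM + 1), on which differences of low genes come out too small. A gene was called at 2-fold or more, and for the pools only with all 4 on one side of the mean of the cells. Depth was read from the most frequent value of FPKM times length among 2342 genes of 1 exon, with a fragment length of 200 bp assumed. Intervals of shares are Clopper-Pearson at 95%, and the upper limit for a gene found in no cell is 3 cells. Both cover counting error only. The 2-fold rule for pools over cells was tested on values shuffled within each gene, with known folds planted in some genes. The other computations were not tested in this way. No test between groups was made, since no animal is named.

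The members and lists were chosen with earlier results of these data known, and the linked sets S18 to S22 and S23 to S28 come from those results. The named genes were the 10 members, the 2 other pathway genes of highest mean FPKM over cells in each role list, those at FPKM of at least 1 in no library, and the 3 genes most like each member found in 5 or more cells. One gene that this rule names is not reported here. Alternatives were other scalings, pseudocounts, thresholds and filters, a mean of log values, values under 2% of a gene's highest value in a linked set put at 0, and leaving out each library. The 5% limit and leaving out each of the other cells were added after the data were seen. Of 120 marker entries 119 were in the table. Promoter sequences came from RefSeq on GRCm38.p6.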

Additional observations from a re-analysis of the deposited data

Results flagged for a closer look

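In 5 of the 28 pathway genes examined over the 4 pools, 1 pool lay far from the other 3, its gap to the nearest of them being a larger part of the range of the 4 than Dixon's 95% critical value. Chance flags about 1 in 20 groups of 4, while of the 19082 genes found in a library with a range above 0 over the pools 25.2% had such a pool, so the members' count is close to that of genes at large. Among the members these were Dll1 in P4 with 8.12 FPKM, Hes5 in P4 with 5.35 FPKM and Hey1 in P3 with 67.5 FPKM. The other genes were Cntn1 in P2 with 47.3 FPKM and Neurl1b in P1 with 0.961 FPKM, a value below the level taken as found.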

How the results depend on the processing

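No paired analysis was possible because no test was made: the numbers 1 to 4 that pools and cells share tie no cell to a pool. Of the members, 2 were lower in pools with libraries rescaled to 1 upper quartile (Notch1 -1.0, Notch2 -2.09), and 1 with S1 to S17 alone (Notch1 -1.07). Of all genes, 5330 of 19973 were lower at 1 upper quartile, and 949 of 19783 with S1 to S17 alone. With a mean of log values 2 members were higher (Hes1 2.73, Dll1 1.05) and the members' median was 0.98, where that of all genes was 0.95. Of all 19783 genes, 5588 were higher with that mean. For the members, leaving out 1 pool gave 0 to 1 higher and 0 to 2 lower, the 1 and 2 without P3, and a median of -0.29 to 0.47. Without P3, 1279 of 19783 genes were higher and 3275 lower. Of all 59 pathway genes, the 10 members included, 3 were higher and 18 lower in pools at 1 upper quartile, and 0 and 4 at a pseudocount of 10. The counts were 25 and 0 with a mean of log values, and 0 and 2 with S1 to S17 alone. Over all genes these counts were 678 and 5330 of 19973 at 1 upper quartile, and 73 and 1316 of 19783 at a pseudocount of 10. They were 5588 and 66 of 19783 with a mean of log values, and 72 and 949 with S1 to S17 alone. For the 59 pathway genes, leaving out 1 pool gave 0 to 4 higher and 6 to 14 lower, and the 4 and 14 came without P3. In cells led by endothelial markers, 3 members were higher and 0 lower at a pseudocount of 10, and 0 were lower with a mean of log values, under which Notch1 joined the higher members (2.19), Hes1 left them (0.99) and the Dll1 ratio reversed to 0.052. It also reversed without S4, to 0.72, and its range with 1 cell left out was -2.22 (without S16) to 0.72. Leaving out 1 cell gave 4 to 6 members higher and 2 to 3 lower. In the same contrast, 2277 of all 18856 genes were higher and 3161 lower at a pseudocount of 10. With a mean of log values 3361 were higher and 2408 lower. Pairs found numbered 26 at FPKM of at least 10 and 85 at any value above 0. Rescaling to 1 sum moved the median ratio of all genes in pools to 0.24, and the higher share of their calls to 22.7%, against 11.1% as deposited. Rescaling to 1 upper quartile moved the median ratio of all genes in cells led by endothelial markers to -0.89, and the higher share of calls to 23.2%, against 37.8%. In the counts of calls, the other alternatives tried, among them the 2% and 5% limits in the linked sets, moved none by more than 1.5 times. The 5% limit was tried for the cells led by endothelial markers and for the pairs found, but not for the pools. The cause of each shift was not tested. Low values limit what can be said of Notch3, Dll1 and Hes5, each found in 1 or 2 cells.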
